A study of Mus musculus with 18 samples.

Results

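AMP deaminase and 6 further steps of purine nucleotide metabolism were followed in the tibialis anterior (TA) muscle of tumour-bearing mice. The 9 genes were taken by symbol as Ampd1, Ampd2, Ampd3, Adsl, Ak1, Nt5c1a, Ada, Pnp and Xdh. They are 9 of 29493 genes with a count, and all 9 were among the 16089 genes kept by the low-count filter and tested. The list was drawn up with the tumour-to-control differences of these libraries in view, so those differences, and the level of Ampd3 beside that of Ampd1, are given below as a description. The log2 fold changes come with the standard error of the fit and no p value, and nothing is supported with them. All 9 are protein-coding genes in the GENCODE M21 annotation of mouse build mm10, from which positions are given.

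AMP deaminase removes the amino group of AMP, giving IMP and ammonia, and in working muscle it pulls the adenylate kinase reaction towards ATP by taking AMP away. IMP returns to AMP through adenylosuccinate synthetase and adenylosuccinate lyase, which together with the deaminase form the purine nucleotide cycle. Alternatively, nucleotidases strip the phosphate from AMP and IMP, and the resulting nucleosides and bases pass through adenosine deaminase, purine nucleoside phosphorylase and xanthine dehydrogenase to uric acid. Skeletal muscle normally relies on the deaminase encoded by Ampd1, whereas Ampd3 is best known as the erythrocyte form and is among the genes raised in several kinds of muscle atrophy.

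Poly(A) RNA was sequenced from 18 TA muscles, in 9 groups of 2 libraries that the labels name biological replicates. LLC cells were injected into muscle of C57BL/6 mice and compared with PBS-injected C57BL/6 mice. C26 cells were injected under the skin of CD2F1 mice and compared with PBS-injected CD2F1 mice. KPC cells (50000 per mouse) and KPCML1 cells (1000 per mouse) were placed orthotopically in C57BL/6 mice, and both groups share the same 2 Matrigel-injected controls, so the line and the number of cells cannot be told apart. KPP is a genetic tumour model of C57BL/6 background started with tamoxifen, and its controls were mice of that model without tumour. Muscles were taken at endpoint. The sources used here do not give the age and sex of the mice, the alleles of the KPP model or the cell type that drives them, whether the KPP controls received tamoxifen, or which leg received LLC cells.

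A library held 22431479 to 36469586 fragments assigned to annotated genes, and the members with the fewest counts are named as such below. The muscle markers Acta1, Ckm, Mb, Des and Ttn were expressed in all 18 libraries, with differences between groups that are given with the other markers below. Mitochondrially encoded RNA made up 5.94 to 22.4% of a library, and every tumour library lay below its controls. TPM (a level per transcript length, scaled to 1 total in every library, that can be set side by side between genes) therefore shares a total with this RNA, whereas fold changes below come from counts scaled by TMM. Over all tested genes with values above 0 the tumour-minus-control difference in log2 TPM exceeded the fitted log2 fold change by a median of 0.50 in LLC, 0.36 in KPCML1, 0.01 in KPC, 0.47 in C26 and 0.09 in KPP. Tumour TPM therefore reads high by that much in LLC, KPCML1 and C26, and ratios of 2 genes within a library are free of it.

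Ampd3 lies on the plus strand of chromosome 7 (110768206 to 110812405) and has several annotated starts. In counts, 59.1 to 100% of the Ampd3 fragments of a library were assigned to the protein-coding transcript Ampd3-201, which starts inside the gene at position 110772604. Of Ampd3 TPM, which divides by length, it held only 41.0% in Matrigel control replicate 1, 38.6% in C26 control replicate 2 and 40.7% in KPP control replicate 1. The 250 bases before that start are printed first, because most counts of the gene with the largest differences were assigned there. Next come the bases before a start further downstream in Ampd3, then those before the main start of Ak1. Last are those before the start of Nt5c1a, the member with the lowest fitted value. Ak1, Nt5c1a and Ampd1 were lower than control in every model on the scale of fitted counts. All 4 windows are on the plus strand, were read from the RefSeq promoter table of build GRCm38.p6, overlap no annotated exon, and are written 5′ to 3′. Capitals mark the FoxO core TAAACA on either strand (TGTTTA is its complement) and the E-box CACGTG.
Ampd3-201 start, chr7:110772354-110772603: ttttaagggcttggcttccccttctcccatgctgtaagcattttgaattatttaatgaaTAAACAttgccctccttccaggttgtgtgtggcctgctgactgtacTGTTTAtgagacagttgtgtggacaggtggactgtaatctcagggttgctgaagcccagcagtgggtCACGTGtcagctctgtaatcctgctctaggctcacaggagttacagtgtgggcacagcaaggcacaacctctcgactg
Ampd3 downstream start, chr7:110773386-110773635: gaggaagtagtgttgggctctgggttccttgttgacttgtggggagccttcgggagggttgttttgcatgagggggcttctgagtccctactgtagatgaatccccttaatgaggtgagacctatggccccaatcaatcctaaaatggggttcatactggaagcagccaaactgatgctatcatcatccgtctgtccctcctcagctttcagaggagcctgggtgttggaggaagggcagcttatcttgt
Ak1-202 start, chr2:32625187-32625436: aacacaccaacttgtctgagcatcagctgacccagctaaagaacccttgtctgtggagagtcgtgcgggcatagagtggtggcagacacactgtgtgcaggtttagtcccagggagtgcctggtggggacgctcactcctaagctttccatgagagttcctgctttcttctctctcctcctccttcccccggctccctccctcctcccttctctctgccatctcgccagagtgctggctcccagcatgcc
Nt5c1a start, chr4:123201235-123201484: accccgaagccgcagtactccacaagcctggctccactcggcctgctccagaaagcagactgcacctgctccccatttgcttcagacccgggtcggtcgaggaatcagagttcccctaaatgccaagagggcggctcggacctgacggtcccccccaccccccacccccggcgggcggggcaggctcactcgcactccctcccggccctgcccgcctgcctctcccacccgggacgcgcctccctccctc

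The Ampd3-201 window held the FoxO core 2 times, at 191 to 186 and at 145 to 140 bases before the start, and the E-box once, at 78 to 73 bases before it. These letters are matches in sequence and no measure of binding. Of 32851 windows of this length in the table, 12% held the FoxO core at least once, 1.33% at least 2 times, and 6.02% held the E-box. The search set was chosen after the Ampd3 window had been read, which favours Ampd3, and it also held AP-1 (TGANTCA, 6.75% of windows), STAT (TTCNNNGAA, 7.02%) and the MEF2 (3.2%) and NF-kB (3.9%) consensus, each given here by name alone. No other Ampd3 window and no window of Ak1, Nt5c1a, Pnp or Ampd2 held any of the 6 motifs, and Ada and Adsl each held 1 STAT match. Windows were found for 7 of the 9 members, 13 in all. Ampd1 and Xdh had none.

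Ampd3 RNA was scarce in control muscle and stood furthest above control, of the 9 genes, in LLC, KPC, C26 and KPP. In the LLC controls it measured 1.13 and 0.90 TPM, against 8.24 and 30.7 TPM in the LLC tumour libraries. In the Matrigel controls it measured 2.15 and 1.56 TPM, against 5.09 and 4.75 TPM with KPCML1 tumours and 19.7 and 137 TPM with KPC tumours. Each of these 6 tumour libraries lay above both of its controls, and the libraries of the KPC group lay far apart. In the C26 controls Ampd3 measured 2.08 and 2.25 TPM, against 9.87 and 35.2 TPM with tumour. In the KPP controls it measured 2.43 and 1.42 TPM, against 11.3 and 17.1 TPM with tumour. Over all groups the 8 controls spanned 0.90 to 2.43 TPM and the 10 tumour libraries 4.75 to 137 TPM, with no overlap.

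On the scale of fitted counts, Ampd3 stood above control in all 5 models. Its log2 fold change (tumour minus control, with the fitted standard error after ±, from 2 libraries in each group) was 5.49 ± 0.82 in KPC, 3.65 ± 0.77 in LLC, 3.14 ± 0.75 in C26, 2.95 ± 0.74 in KPP and 0.98 ± 0.72 in KPCML1. The size rested in part on single libraries. It was 3.48 in KPC without KPC_tumor replicate 2, 2.59 in LLC without LLC_tumor replicate 2 and 2.19 in C26 without C26_tumor replicate 2, and with the other library of these groups left out it was 6.35, 4.31 and 3.69. Whether Salmon used strand is not stated, and Ampd3 overlaps Rnf141 on the opposite strand. Rnf141 stayed between 5.72 and 14.8 TPM, and 0 of its 5 differences (log2 fold change -0.06 to 0.32) passed the threshold, a Benjamini-Hochberg adjusted p under 0.05 over all tested genes by the quasi-likelihood test of edgeR ("called" below).

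**Figure D1:**
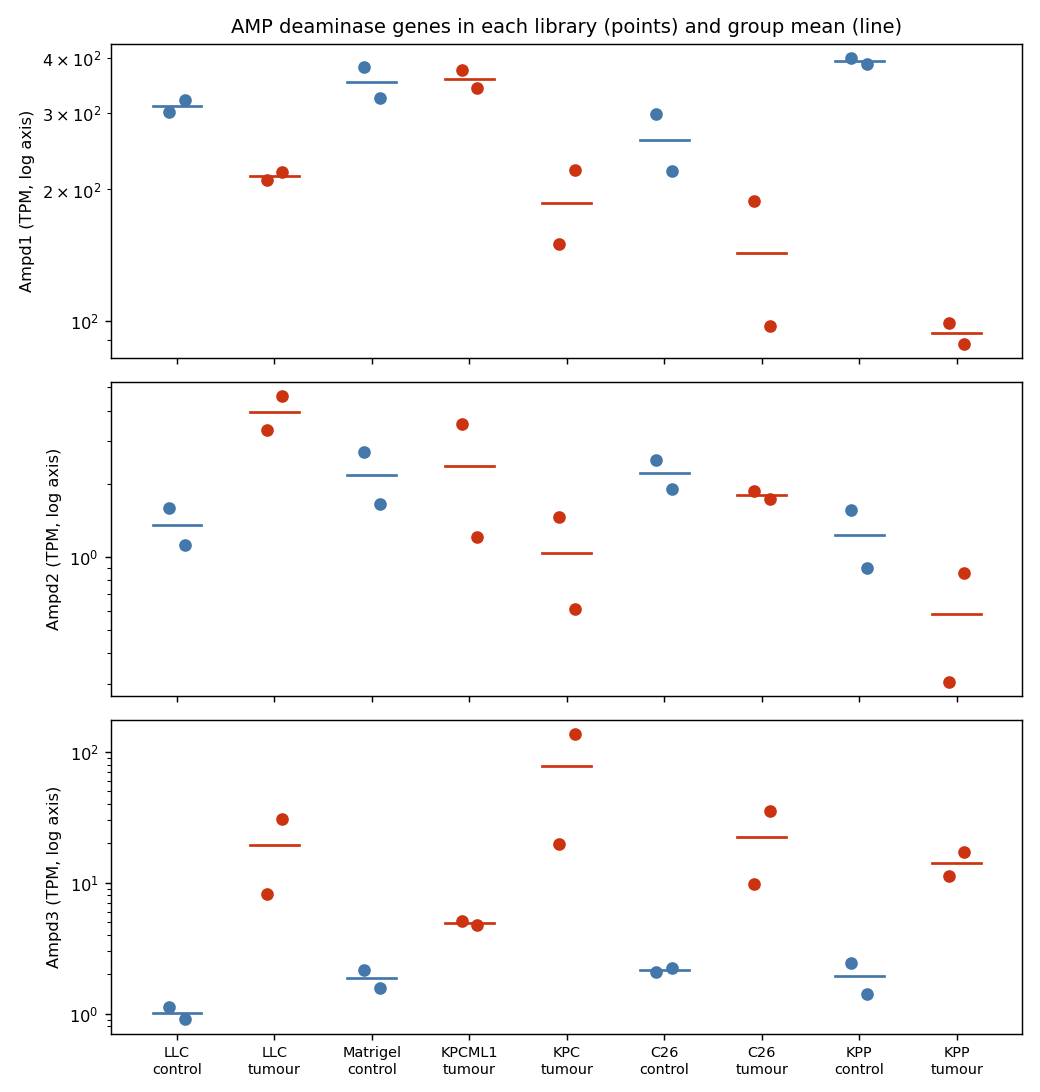
TPM on a log axis of Ampd1 (top), Ampd2 (middle) and Ampd3 (bottom) in each library (points) of the 9 groups, with the group mean as a line, controls in blue and tumour groups in red. All 10 tumour libraries lie above all 8 controls for Ampd3, from 4.75 to 137 TPM. The group mean of Ampd1 TPM is lowest with KPP tumours, whose libraries are at 98.6 and 88.5 TPM.

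Ampd1, the muscle form (chromosome 3, 103074014 to 103099720), was the most abundant deaminase RNA in every library. It measured 302 and 321 TPM in the LLC controls and 211 and 219 TPM with LLC tumours. With KPP tumours it measured 98.6 and 88.5 TPM, against 400 and 387 TPM in the KPP controls. With C26 tumours it measured 188 and 97.3 TPM, against 298 and 220 TPM in the C26 controls. The groups of these 3 models did not overlap, and the lowest Ampd1 TPM of the series was in a KPP tumour library. In counts scaled by TMM the lowest library was C26 tumour replicate 2, at 92.9 CPM, against 142 and 142.2 CPM with KPP tumours. In the Matrigel controls it measured 381 and 325 TPM, with KPC tumours 150 and 222 TPM, and with KPCML1 tumours 376 and 343 TPM, so KPC lay below the controls and KPCML1 among them.

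Fitted to counts, the log2 fold change of Ampd1 was -2.51 ± 0.36 in KPP, -1.35 ± 0.35 in C26, -1.02 ± 0.35 in LLC, -0.92 ± 0.34 in KPC and -0.53 ± 0.34 in KPCML1. The C26 value was -0.78 without C26_tumor replicate 2 and -2.30 without C26_tumor replicate 1, and the KPC value -0.57 without KPC_tumor replicate 1. For KPCML1 the count scale put both tumour libraries below both controls, while the TPM ranges above overlap, and the value was -0.35 without KPCML1_tumor replicate 2. In bulk muscle, fewer cells of a type and less RNA per cell cannot be told apart.

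Ampd2, the broadly expressed form best known from liver (chromosome 3, minus strand, 108074062 to 108086651), stayed between 0.31 and 4.60 TPM, from 28 to 179 counts. Its log2 fold change was -1.31 ± 0.29 in KPP (-0.88 without KPP_control replicate 1), -1.07 ± 0.28 in KPC, -0.60 ± 0.28 in KPCML1, -0.54 ± 0.28 in C26 and 0.42 ± 0.28 in LLC. No annotated transcript of Ampd2 dominated in all libraries.

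Set against one another within a library, the 3 deaminase genes gave a makeup that differed between controls and tumour-bearing mice. Ampd3 held 0.279 to 1.00% of summed deaminase TPM in the 8 controls (median 0.516%) and 1.33 to 38.1% in the 10 tumour libraries (median 10.9%). It held 11.5 and 38.1% in the KPC libraries, 4.94 and 26.2% in C26, 10.3 and 16.0% in KPP, 3.71 and 12.1% in LLC, and 1.33 and 1.36% in KPCML1. Ampd1 still supplied 61.7 to 98.3% in tumour libraries, against 98.2 to 99.4% in controls. The shares of controls and tumour libraries did not overlap for Ampd3, and the smallest gap was that to KPCML1.

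**Figure D2:**
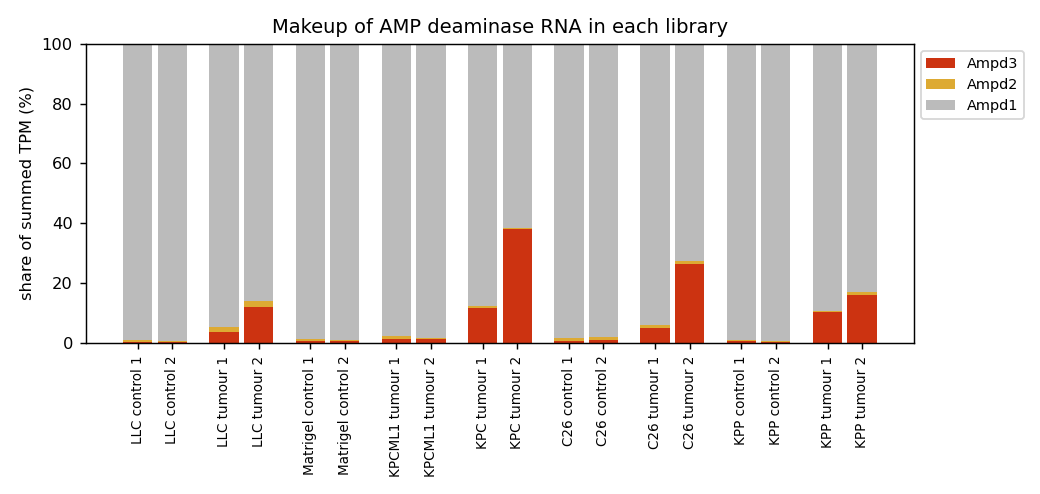
Share of summed TPM (%) of Ampd1, Ampd2 and Ampd3 in each of the 18 libraries, as stacked bars from 0 to 100%. The Ampd3 part is 1.00% or less in every control and reaches 38.1% in KPC tumour replicate 2.

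The log2 ratio of Ampd3 to Ampd1 TPM was -8.27 ± 0.29 (SD, n = 2) in the LLC controls and -3.75 ± 1.30 with LLC tumours, a difference of 4.51. For KPC it went from -7.59 ± 0.16 to -1.81 ± 1.58, a difference of 5.78, and for KPP from -7.73 ± 0.52 to -2.75 ± 0.53, a difference of 4.98. For C26 the ratio was -6.89 ± 0.39 in controls and -2.86 ± 1.97 with tumour, a difference of 4.03. For KPCML1 the tumour value was -6.19 ± 0.02, only 1.40 above the shared Matrigel controls. In KPP the ratio combined a higher Ampd3 with the lowest group mean of Ampd1 TPM. Summed deaminase TPM was 110 and 106 in the KPP tumour libraries, against 404 and 390 in their controls.

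Set directly against each other, KPC and KPCML1 tumour libraries differed most in Ampd3 among the 9 genes. Since both groups share their controls, this contrast is the difference of 2 comparisons on which the genes were chosen, and it too is a description. Ampd3 was 4.50 ± 0.78 higher on the log2 scale in KPC (fold 22.6), and both KPC libraries lay above both KPCML1 libraries. Without KPC_tumor replicate 2 the difference was 2.51. The remaining 8 genes ranged from -1.07 ± 0.39 (Xdh) to 0.13 ± 0.47 (Nt5c1a), with Pnp at -0.76 ± 0.22. Of the 9 genes 1 (Ampd3) was called here, where 5.99% of all tested genes were called, and nothing is read from that count. The call was lost without either KPCML1_tumor library or KPC_tumor replicate 2.

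Transcript makeup was not used in choosing the genes, and Salmon's division of fragments among transcripts is an estimate. In controls Ampd3-201 held 38.6 to 100% of Ampd3 TPM (median 54.7%) at 0.51 to 1.87 TPM, and in tumour libraries 59.0 to 90.4% (median 69.0%) at 2.91 to 84.4 TPM. The shares overlapped, and the TPM did not. Transcripts starting upstream summed to 0 to 1.23 TPM in controls and 0 to 24.9 TPM in tumour libraries, and those starting downstream to 0 to 0.697 and 0.41 to 28.1 TPM. In KPC tumour replicate 2, the library with the highest Ampd3, the 3 classes of start measured 84.4, 24.9 and 28.1 TPM. In counts, Ampd3-201 had 58 to 175 fragments in a control and 223 to 9653 in a tumour library. Read against the highest control, the tumour libraries held more RNA assigned to the start whose window is printed above. For the downstream starts this was so in all but 2 cases. Since Ampd3-201 carried most counts of the gene, its TPM and counts follow the difference on which Ampd3 was chosen, and they are a description. Only the shares stand apart from that choice, and they overlapped.

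**Figure D3:**
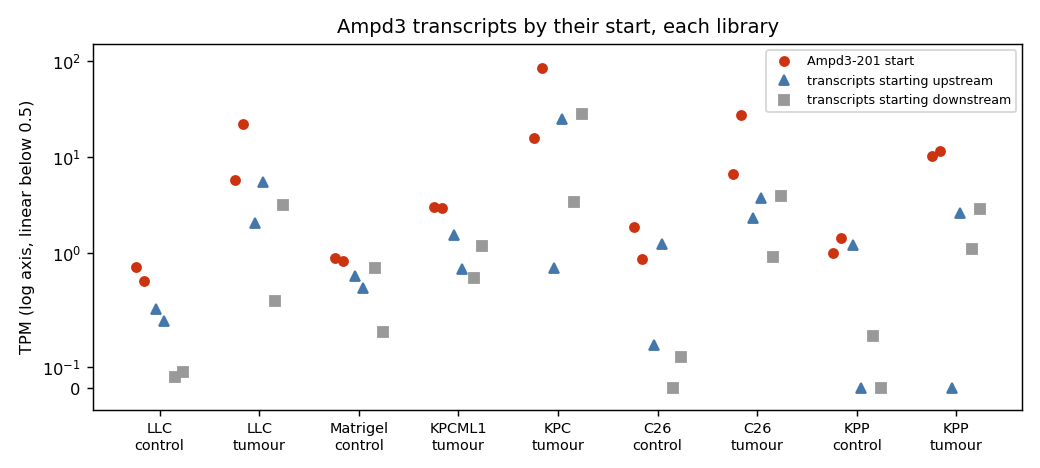
TPM (log axis, linear below 0.5) of Ampd3 transcripts in each library, by start: the Ampd3-201 start (red circles), starts upstream (blue triangles) and starts downstream (grey squares). The Ampd3-201 values of tumour libraries, 2.91 to 84.4 TPM, lie above those of all controls, 0.51 to 1.87 TPM.

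Of the other members, Nt5c1a-201 and Ada-201 held 100% of their gene's TPM in every library. Ak1-202 held 87.8 to 91.8% of Ak1 TPM in controls and 88.1 to 93.3% in tumour libraries. Adsl-204 held 47.5 to 54.2% and 45.3 to 56.2% of Adsl. Ampd1-201 held 76.8 to 85.2% in controls and 48.0 to 87.8% in tumour libraries, where the short transcript Ampd1-204 reached 38.7%. Pnp-202 held 68.1 to 91.0% and 57.5 to 84.8% of Pnp. Like Ampd2, Xdh had no dominant transcript, and the median share of Xdh-206, which retains an intron, was 20.7% in controls and 18.1% in tumour libraries, beside 19.2 and 17.3% for the protein-coding Xdh-201. Ranges of controls and tumour libraries overlapped for each of these transcripts.

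Ak1, muscle adenylate kinase, which converts 2 ADP to ATP and AMP (chromosome 2, 32621758 to 32635058), was the most abundant member in all groups. It measured 785 and 774 TPM in the LLC controls and 411 and 474 TPM with LLC tumours. It measured 794 and 608 TPM in the KPP controls and 294 and 285 TPM with KPP tumours. It measured 899 and 696 TPM in the C26 controls and 349 and 341 TPM with C26 tumours. The tumour libraries of these 3 models sat close together and below both of their controls. In the Matrigel controls Ak1 measured 799 and 739 TPM, with KPC tumours 435 and 411 TPM, and with KPCML1 tumours 648 and 569 TPM. Both tumour groups lay below these controls, KPC further than KPCML1 in TPM, which reads high in KPCML1. On the scale of fitted counts the KPC minus KPCML1 difference of Ak1 was -0.19 ± 0.16 and was not called.

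The log2 fold change of Ak1 was -1.65 ± 0.17 in C26, -1.34 ± 0.17 in KPP, -1.33 ± 0.17 in LLC, -0.87 ± 0.16 in KPC and -0.68 ± 0.16 in KPCML1. With single libraries left out it stayed between -1.87 and -1.47 in C26 and between -0.71 and -0.58 in KPCML1.

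Nt5c1a, the cytosolic nucleotidase of muscle that turns AMP into adenosine (chromosome 4, 123201504 to 123216275), measured 14.02 and 9.91 TPM in the C26 controls and 3.82 and 1.51 TPM with tumour. In KPP it measured 7.86 and 4.64 TPM in controls and 0.30 and 0.83 TPM with tumour, from 8 and 26 counts. Both tumour groups lay below their controls. Its log2 fold change was -3.49 ± 0.56 in KPP and -2.55 ± 0.50 in C26. In LLC (-1.23 ± 0.48), KPCML1 (-1.22 ± 0.47) and KPC (-1.09 ± 0.46) the tumour libraries also lay below their controls. The KPCML1 value ranged from -2.05 to -0.66 with single libraries left out.

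Adsl, adenylosuccinate lyase, acts both in the purine nucleotide cycle and in the synthesis of new purines (chromosome 15, 80948490 to 80970946). It was the third most abundant member in control muscle, at 61.7 to 109 TPM, and measured 78.8 to 146 TPM in tumour libraries. In both KPP tumour libraries and in C26 tumour replicate 2 it stood above Ampd1. In KPP it went from 85.9 and 61.7 TPM in controls to 128 and 133 TPM, a log2 fold change of 0.68 ± 0.15. In LLC the log2 fold change was -0.54 ± 0.15 on the count scale, while the TPM of 78.8 and 94.2 overlapped that of the controls, 92.8 and 87.3. In KPCML1 the value was -0.08 ± 0.15, in C26 -0.04 ± 0.15 and in KPC 0.04 ± 0.15, and on the count scale the groups of these 3 models overlapped. In TPM, which reads high in KPCML1, the KPCML1 libraries (103 and 132.9) lay above the Matrigel controls (86.7 and 90.6).

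Pnp, purine nucleoside phosphorylase, which splits inosine and guanosine (chromosome 14, 50931082 to 50965237), measured 6.43 and 4.204 TPM in the C26 controls and 14.02 and 19.0 TPM with C26 tumours. With KPCML1 tumours it measured 8.33 and 7.97 TPM, with KPC tumours 3.65 and 3.13 TPM, and in the Matrigel controls 3.61 and 2.84 TPM. C26 and KPCML1 lay above their controls, and on the TPM scale KPC overlapped them. Its log2 fold change was 1.13 ± 0.22 in C26, 0.96 ± 0.22 in KPCML1, 0.59 ± 0.22 in KPP, 0.21 ± 0.22 in KPC and 0.03 ± 0.23 in LLC. Reads of Pnp can be shared with its near-copy Pnp2 (at most 0.267 TPM) and the overlapping read-through gene Gm49342 (0 to 9.18 TPM), so its values are uncertain. Summed over the 3 genes, C26 tumour libraries measured 16.9 and 28.3 TPM against 9.30 and 5.02 TPM in controls, and KPCML1 libraries 11 and 14.4 TPM against 5.96 and 3.53 TPM. The sums of the other 3 models overlapped those of their controls, with 6.67 and 12.6 TPM against 8.35 and 3.64 TPM in KPP, 4.42 and 7.28 TPM against 2.33 and 4.62 TPM in LLC, and 5.68 and 5.72 TPM in KPC.

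Xdh, xanthine dehydrogenase, which makes uric acid (chromosome 17, minus strand, 73883895 to 73950196), had log2 fold changes of 0.98 ± 0.38 in KPCML1, 0.75 ± 0.38 in C26, 0.56 ± 0.39 in LLC, -0.09 ± 0.38 in KPC and -0.57 ± 0.38 in KPP. The highest TPM were 38.9 and 85.2, with C26 tumours. Ada, adenosine deaminase (chromosome 2, minus strand, 163726584 to 163750239), had only 1 to 31 counts in a library. Its values ran from -0.57 ± 0.68 in KPC to 0.77 ± 0.66 in C26, and at this depth a change of Ada was not detectable.

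As a description of the fitted table, the members called were 3 in LLC (1 higher, 2 lower), 2 in KPCML1 (1 and 1), 3 in KPC (1 and 2), 5 in C26 (2 and 3) and 7 in KPP (3 and 4). Over all tested genes 13.6% were called in LLC (7.39% higher, 6.24% lower), 8.53% in KPCML1 (4.15 and 4.38%), 29.1% in KPC (15.3 and 13.7%), 21.3% in C26 (11.5 and 9.8%) and 36.7% in KPP (17.4 and 19.3%). A joint test of whether the 5 differences were equal called 2 of the 9 genes (Ampd3 and Adsl), where 8.32% of all tested genes were called. Because the genes were chosen on these comparisons, nothing is read from the counts. Those of the 5 comparisons depended on single libraries, being 1 in LLC without LLC_control replicate 1, LLC_control replicate 2 or LLC_tumor replicate 2, 0 in KPCML1 without any 1 of its 4 libraries, 3 in C26 without C26_control replicate 1, C26_control replicate 2 or C26_tumor replicate 2, and 4 in KPP without KPP_control replicate 1. The members' median log2 fold change was 0.03 in LLC, -0.08 in KPCML1, -0.57 in KPC, -0.04 in C26 and -0.57 in KPP. The medians of all tested genes lay between -0.04 (KPP) and 0.04 (C26). Ampd3 lay on the higher side and Ampd1, Ak1 and Nt5c1a on the lower side in all 5 models, under each alternative run. Pnp lay on the higher side in KPCML1, KPC, C26 and KPP, and in LLC its small value changed sign with length-scaled counts and without LLC_control replicate 2 or LLC_tumor replicate 2 (-0.33).

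**Figure D4:**
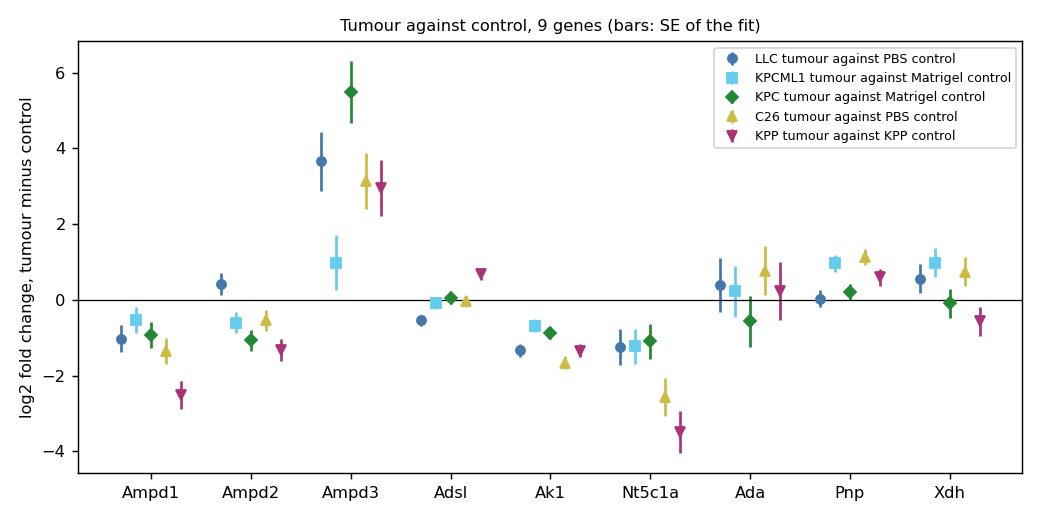
Log2 fold change (tumour minus control, fitted counts) of each of the 9 genes in the 5 models, with bars of 1 standard error of the fit. Ampd3 reaches 5.49 in KPC, Ak1 is below 0 in all 5 models, and Nt5c1a is lowest in KPP at -3.49.

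Differences among the control groups were not used in choosing the genes. The same control libraries do stand in the tumour comparisons on which the genes were chosen, so the values here are not independent of that choice. In control muscle the order by median TPM was Ak1 (780), Ampd1 (323), Adsl (87.0), then Xdh, Nt5c1a, Pnp, Ampd3 and Ampd2, and last Ada. Ranges of neighbouring genes from Xdh to Ampd2 overlapped, while those of Ak1, Ampd1, Adsl and Ada overlapped with no other member. A joint test of the 4 control groups, which differ in strain, injection and experiment at once, called 0 of the 9 genes, where 2.79% of all tested genes were called (quasi-likelihood test of edgeR, Benjamini-Hochberg adjusted). Adjusted p ran from 0.138 for Pnp to 0.968 for Ampd3, 2 genes (Xdh and Pnp) had an unadjusted p under 0.05, and DESeq2 called 1 (Pnp, adjusted p 0.0382).

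Over the 18 libraries, log2 CPM of Ampd1 went with that of Ak1 (Pearson r 0.896) and Nt5c1a (0.867), and against that of Ampd3 (-0.649). These are descriptions over libraries that share their controls and fall into groups. The genes whose log2 CPM was most like that of Ampd3 over the 18 libraries were Ctdp1 (r 0.970), Errfi1 (0.964), Gna13 (0.963), Abi1 (0.960) and Rnf4 (0.958). Errfi1, an inhibitor of EGF receptor signalling, measured 132.9 and 268.2 CPM in the KPC libraries against 22.02 and 20.5 CPM in the Matrigel controls. For Ampd1 they were Phkg1 (0.968), the muscle phosphorylase kinase subunit, Ociad2 (0.965), Sh3bgr (0.956), Cib2 (0.949) and Bpgm (0.948).

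Beyond the members, 77 further genes of purine metabolism were listed and 67 were tested. Called were 12 in LLC (5 higher, 7 lower), 9 in KPCML1 (4 and 5), 22 in KPC (6 and 16), 17 in C26 (8 and 9) and 29 in KPP (11 and 18). These are 17.9, 13.4, 32.8, 25.4 and 43.3% of the 67, where 13.6, 8.53, 29.1, 21.3 and 36.7% of all tested genes were called in the same order of models. The median log2 fold change of the 67 was -0.14 in LLC, -0.04 in KPCML1, -0.21 in KPC, -0.09 in C26 and -0.29 in KPP. These lists were written with earlier results of the data known, and nothing is read from the counts. With single libraries left out, the counts fell to 3 (LLC, without LLC_control replicate 1), 2 (KPCML1, without Matrigel_control replicate 2), 9 (KPC, without Matrigel_control replicate 2), 10 (C26, without C26_control replicate 1 or C26_tumor replicate 2) and 21 (KPP, without KPP_control replicate 1).

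In the purine nucleotide cycle the step between IMP and AMP is served in muscle by Adssl1, which was called in 0 of the 5 comparisons (from -0.69 ± 0.26 in LLC to 0.66 ± 0.26 in KPP), while its relative Adss was called lower in KPP. Of the 6 genes of the cycle, members included, 2 were called in LLC, 0 in KPCML1, 2 in KPC, 2 in C26 and 5 in KPP, beside 13.6, 8.53, 29.1, 21.3 and 36.7% of all tested genes, and the members among them were chosen on these comparisons.

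Of the 13 genes of new purine synthesis, Adsl included, those called were 4 in LLC (3 higher), 2 in KPCML1 (1 higher), 4 in KPC (2 higher), 2 in C26 (1 higher) and 7 in KPP (5 higher). That is 30.8, 15.4, 30.8, 15.4 and 53.8% of the list, beside 13.6, 8.53, 29.1, 21.3 and 36.7% of all tested genes. Impdh2, the IMP dehydrogenase that commits IMP to guanine nucleotides, was the one gene called in all 5, at 1.58 ± 0.18 in KPP, 1.31 ± 0.17 in C26, 1.17 ± 0.17 in KPCML1, 1.04 ± 0.17 in LLC and 0.93 ± 0.17 in KPC. These calls held in all 11 alternatives of each comparison. Ppat, which catalyses the first committed step of the pathway, was called lower in KPCML1, KPC and C26.

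Of 10 tested salvage genes, members included, 2 were called in LLC (0 higher), 1 in KPCML1 (1 higher) and 5 in KPC (0 higher). In C26 4 were called (2 higher) and in KPP 7 (3 higher). Over all tested genes the shares called were 13.6, 8.53, 29.1, 21.3 and 36.7% in the same order of models. Called higher were Pnp in KPCML1, Aprt and Pnp in C26, and Aprt, Hprt and Pnp in KPP. The KPP call of Pnp was lost with no filter, with length-scaled counts, in the block fits and with the KPP libraries alone. Its KPCML1 call was lost with the replicate block and with the orthotopic libraries alone, while its C26 call held in each such fit. Among those called lower, Adk (adenosine kinase, which returns adenosine to AMP) fell in C26 (-1.14 ± 0.21), LLC (-1.07 ± 0.21), KPP (-0.92 ± 0.21) and KPC (-0.78 ± 0.21), with -0.64 ± 0.21 in KPCML1. Gmpr, the reductase that turns GMP back into IMP, fell in the same 4 models, from -0.97 ± 0.17 in C26 to -0.69 ± 0.17 in KPC. The C26 calls of both genes held with each library left out, as did the KPP call of Gmpr. The LLC calls of both were lost without LLC_control replicate 1 or LLC_tumor replicate 2, and that of Gmpr also without LLC_tumor replicate 1. In KPC both were lost without Matrigel_control replicate 2, Adk without KPC_tumor replicate 2 and Gmpr without KPC_tumor replicate 1. The KPP call of Adk was lost without replicate 2 of either KPP group, and its LLC, KPC and KPP calls with length-scaled counts. The KPP call of Gmpr was lost with the KPP libraries alone.

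The kinases of nucleotides and creatine, Ak1 included, were called lower in 4 of 16 cases in LLC, 2 in KPCML1, 5 in KPC, 3 in C26 and 4 in KPP, and higher only once, Nme2 in KPP. In either direction that is 25.0, 12.5, 31.2, 18.8 and 31.2% of the list, beside 13.6, 8.53, 29.1, 21.3 and 36.7% of all tested genes. Ckmt2, the mitochondrial creatine kinase of striated muscle, fell in all 5 models (-2.49 ± 0.34 in C26, -2.13 ± 0.34 in KPP, -2.09 ± 0.34 in LLC, -1.62 ± 0.33 in KPCML1, -1.43 ± 0.33 in KPC). Its KPCML1 call was lost without Matrigel_control replicate 2 or either KPCML1_tumor library, and its KPC call without Matrigel_control replicate 2 or KPC_tumor replicate 1. Ckb, the brain-type creatine kinase, fell in KPP (-2.00 ± 0.29), KPC (-1.64 ± 0.28), C26 (-1.40 ± 0.28) and LLC (-1.32 ± 0.28). Its C26 call was lost without C26_tumor replicate 2 and its LLC call without LLC_control replicate 1 or LLC_tumor replicate 1. Ckm, the cytosolic muscle creatine kinase, was called in 0 of the 5 comparisons (-0.41 ± 0.34 to 0.19 ± 0.34).

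Of the 17 tested nucleotidase and breakdown genes, members included, those called were 2 in LLC (both higher), 5 in KPCML1 (3 higher), 4 in KPC (3 higher), 9 in C26 (6 higher) and 7 in KPP (3 higher). That is 11.8, 29.4, 23.5, 52.9 and 41.2% of the list, beside 13.6, 8.53, 29.1, 21.3 and 36.7% of all tested genes, so LLC and KPC lay below the share over all genes. Aox1, an aldehyde oxidase related to xanthine dehydrogenase, rose in LLC (1.83 ± 0.21), C26 (1.10 ± 0.21), KPP (1.02 ± 0.21), KPCML1 (0.73 ± 0.21) and KPC (0.62 ± 0.21). The KPC call was lost with any of its 4 libraries left out, and the KPCML1 call without either Matrigel control or KPCML1_tumor replicate 1, and both were lost in the block fits and with the orthotopic libraries alone. Nt5e, the ectonucleotidase CD73 that makes adenosine outside the cell, rose in KPC (1.79 ± 0.36), KPCML1 (1.39 ± 0.36), C26 (1.35 ± 0.33) and LLC (1.27 ± 0.37), with -0.37 ± 0.35 in KPP. Only its KPC call held with each library left out. Its LLC call was lost with any of the 4, in the block fits and with length-scaled counts. Its KPCML1 call was lost without either Matrigel control or KPCML1_tumor replicate 1, in the block fits and with the orthotopic libraries alone. Its C26 call was lost without either control or C26_tumor replicate 2. Samhd1, a hydrolase of deoxynucleotides, rose in C26 (1.75 ± 0.19) and fell in KPP (-0.69 ± 0.19, lost without replicate 1 of either KPP group and with the KPP libraries alone). Entpd4, a nucleotidase of the Golgi, fell in KPP (-1.32 ± 0.18), KPC (-0.98 ± 0.18), C26 (-0.86 ± 0.18, lost without C26_tumor replicate 2) and KPCML1 (-0.84 ± 0.18, lost without replicate 2 of either group).

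AMP-activated protein kinase senses the AMP that the deaminases remove. Of its 7 subunit genes 0 were called higher, and 2 were called lower in LLC, 1 in KPCML1, 1 in KPC, 2 in C26 and 3 in KPP (6.24, 4.38, 13.7, 9.8 and 19.3% of all tested genes were called lower). Prkag3, the gamma subunit of fast glycolytic muscle, fell in KPP (-2.95 ± 0.34), C26 (-2.52 ± 0.33), KPC (-2.08 ± 0.33) and KPCML1 (-1.79 ± 0.32), with -0.10 ± 0.31 in LLC. The KPCML1 call was lost without KPCML1_tumor replicate 2. Of 8 tested adenosine receptor and nucleoside transporter genes, 0 were called in LLC, KPCML1 and C26, 4 in KPC and 3 in KPP (29.1 and 36.7% of all tested genes in these last 2). Slc28a2, a sodium-coupled nucleoside carrier, fell in KPP (-2.11 ± 0.26) and KPC (-2.00 ± 0.26), and these calls held in all 11 alternatives. It was also called lower in KPC than in KPCML1 (-1.42 ± 0.25), a call lost without either KPCML1_tumor library or KPC_tumor replicate 2. The gene was named in part by its KPC comparison, whose KPC libraries this contrast reuses, so the value is a description. In that contrast 0 of the 67 genes were called higher and 4 lower (2.94 and 3.05% of all tested genes), the others being Adora2b, Dguok and Gmpr2, named here after their values were seen. Among the 4 control groups 3 of the 67 differed by the joint test (2.79% of all tested genes; Entpd4, Nt5e and, named after its value was seen, Itpa).

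**Figure D5:**
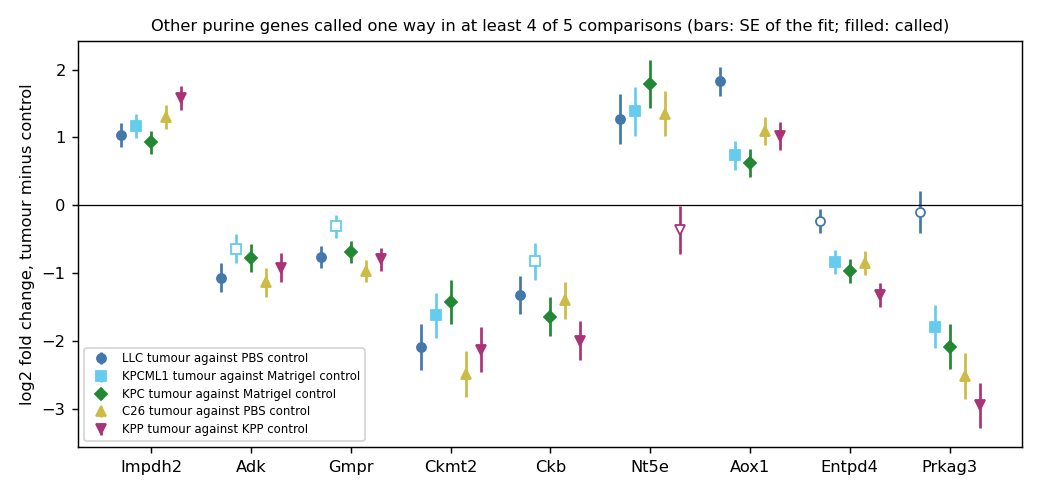
Log2 fold change (tumour minus control, fitted counts, bars of 1 standard error) of the 9 further purine genes called in the same direction in at least 4 of the 5 models, filled where called. Impdh2 and Aox1 are filled above 0 in all 5, Ckmt2 is filled below 0 in all 5, and Prkag3 stands near 0 in LLC alone (-0.10).

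Markers of other cells moved with some of these groups, and their part in the members' values was not tested. Over all tested genes, 7.39, 4.15, 15.3, 11.5 and 17.4% were called higher in LLC, KPCML1, KPC, C26 and KPP. Called lower were 6.24, 4.38, 13.7, 9.8 and 19.3% in the same order. Nothing is read from marker counts near these shares. Ampd3 is also an erythrocyte gene. The 12 erythroid markers summed to 294.6 to 381.5 CPM in LLC controls and 865 to 2604 CPM with LLC tumours, and to 359 to 399 CPM in Matrigel controls, 2971 to 6836 CPM with KPCML1 and 2100 to 2307 CPM with KPC tumours. They summed to 294 to 315 CPM in C26 controls and 147 to 288 CPM with C26 tumours, and to 424 to 890 and 462 to 3206 CPM in KPP. Rhag was at 0 in all 4 control groups and with C26 tumours. Of 9 tested erythroid markers 6 were called higher in LLC, 9 in KPCML1, 9 in KPC, 0 in C26 and 0 in KPP. Neutrophil markers, 8 tested, were called higher in 2, 4, 7, 4 and 5 cases in LLC, KPCML1, KPC, C26 and KPP, summing to 1.17 to 2.76 CPM in controls and 6.80 to 74.1 CPM in tumour libraries. Of 12 macrophage markers 4 were called higher in KPCML1, 1 in KPC and 1 in KPP. Of 10 endothelial markers 8 were called lower in KPP, where they summed to 137 to 177 CPM against 337 to 341 CPM in controls, and 1 was called higher in each of KPCML1 and KPC. Of 6 adipocyte markers 4 were called lower in C26 and 5 in KPP, with 1 higher in LLC, 3 in KPCML1 and 3 in KPC. Among the 4 control groups 5 of these 6 markers differed by the joint test, where 2.79% of all tested genes were called. The adipocyte directions are therefore relative to control levels that were unlike between models. Lymphocyte markers, 8 in all, were too low to test. Of 10 fast myofibre markers 2 were called lower in LLC, 1 in KPCML1, 1 in KPC, 4 in C26 and 3 in KPP, with 1 higher in KPC and 2 in KPP. Of 8 slow markers 3 were called higher in KPC and 1 each in LLC and C26, and 1 was called lower in C26 and 1 in KPP. In the 3 called in KPC its libraries lay far apart (Myh7 1.81 and 51.7 CPM, Myl2 0.50 and 26.5, Tnnc1 3.38 and 23.95). The 8 slow markers summed to 63.0 and 233.6 CPM in the KPC libraries, against 57.5 and 88.9 CPM in the Matrigel controls. Of the 5 muscle markers, Mb (myoglobin) was called lower in LLC, KPCML1 and C26, Acta1 (skeletal actin) lower in C26 and KPP, and Des (desmin) higher in KPC, C26 and KPP, with Ckm and Ttn called in none. Their sum made up 5.68 to 6.36% of CPM in controls, against 4.78 to 4.83% with LLC, 5.11 to 5.59% with KPCML1, 5.78 to 6.48% with KPC, 3.07 to 5.39% with C26 and 4.40 to 4.92% with KPP tumours.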

How the data were processed

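RNA of 18 TA muscle libraries was sequenced in pairs after poly(A) selection with a directional kit, per the labels. Per the submitters' processing notes, reads were demultiplexed with bcl2fastq (2.20) and quantified with Salmon on build mm10. The sources used here give neither Salmon's version nor its strand setting, nor the transcript release. The deposited files hold, for 140825 transcripts, estimated counts of fragments that the authors had not normalised, TPM scaled within a library by Salmon, and effective lengths. The authors' 5 tables of DESeq2 results were not used.

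Transcripts were matched by identifier to GENCODE M21 (139881 matched, 944 did not and held 0.416 to 0.693% of fragments). These counts were added up by gene and rounded to whole numbers. With edgeR (4.0.16), genes were filtered with filterByExpr, libraries were scaled by TMM, and a quasi-likelihood model of 9 groups was fitted to all 18 libraries, which share 1 estimate of spread (9 residual degrees of freedom, prior 5.1, common dispersion 0.0539). P values were adjusted by Benjamini and Hochberg over 16089 genes and called under 0.05. The standard error is the log2 fold change divided by the square root of F. Log2 CPM (prior count of 2) served for likeness between genes with a mean of at least 5 CPM. Whether libraries of a group came from separate mice is given only by the label "biological" replicate.

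The members and lists were chosen with earlier results of these data known. Named were the 9 members, listed purine genes called in 1 direction in at least 4 of 5 comparisons or among the 3 of smallest adjusted p in a comparison, the 5 genes most like Ampd3 and Ampd1 (leaving out predicted names, pseudogenes and receptor segments), and the marker lists. A few further genes are named with their counts.

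Alternatives were relative log expression factors, DESeq2 (1.42.0), no filter, length-scaled counts, a replicate block, each experiment alone and each library left out. In data simulated for the LLC comparison over 16089 genes, 26% of 100 genes changed 2-fold and 91% of 100 changed 4-fold were called, with 5 unchanged genes. The changed genes were drawn from those with higher counts, and the LLC comparison itself called many more genes (2193). These rates are therefore not the sensitivity of the real comparisons, nor that for low-count members such as Ada. The fits ran in R (4.3.3), and tables and figures were made in Python (3.11.15) using matplotlib (3.10.9) and pandas (2.3.3).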

Additional observations from a re-analysis of the deposited data

Results flagged for a closer look

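The tumour-to-control differences of 2 members were unequal among the 5 models by a joint test (quasi-likelihood test of edgeR, Benjamini-Hochberg adjusted over all tested genes, 8.32% of which were called). For Ampd3 the adjusted p was 0.0238, with log2 fold changes from 0.98 ± 0.72 in KPCML1 to 5.49 ± 0.82 in KPC. It was lost without KPCML1_tumor replicate 1 (0.103), KPCML1_tumor replicate 2 (0.0884) or KPC_tumor replicate 2 (0.0726) and in both block fits (0.0892 and 0.0597). For Adsl it was 0.0282, with -0.54 ± 0.15 in LLC and 0.68 ± 0.15 in KPP at the ends, and it held in 16 of 24 alternatives. It was lost without LLC_control replicate 1, either LLC_tumor library, either C26 control or KPP_control replicate 1 (0.0522 to 0.089) and in both block fits (0.129 and 0.074). The test is built from the comparisons on which the genes were chosen, so it describes the members and is no independent support. Because KPC and KPCML1 share their controls, a deviation of those controls enters both differences.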

How the results depend on the processing

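Over the 5 tumour comparisons, 433 of 495 alternative values for single members stayed on the same side of the threshold. Of the rest, 46 lost a call and 16 gained one. Some values that were not called changed sign. Ada in KPP went from 0.24 to -0.95 without KPP_tumor replicate 2, and Xdh in KPC from -0.09 to 0.49 without KPC_tumor replicate 1. For KPC against KPCML1 and the joint tests, 382 of 423 stayed on the same side, 16 lost a call and 25 gained one, and 3 changed sign without being called. In both sets 0 called values changed sign. The numbers of members called moved as follows. The share of all genes called under each setting is not given, so nothing is read from these numbers here or below. With no filter on low counts they were 5 in KPCML1 (from 2), 5 in KPC (from 3), 2 in KPC against KPCML1 (from 1), 6 for the difference among the 5 models (from 2) and 1 among controls (from 0). With DESeq2 they were 2 in KPC against KPCML1, 8 among the models and 1 among controls, and with length-scaled counts 2 in KPC against KPCML1. With each experiment alone, which leaves fewer libraries, they were 6 in LLC (from 3), 0 in KPCML1 and 4 in KPP (from 7). With single libraries left out they ran from 1 to 2 in LLC, from 0 to 0 in KPCML1, from 2 to 3 in KPC, from 3 to 5 in C26, from 4 to 7 in KPP, from 0 to 1 in KPC against KPCML1, from 1 to 5 among the models and from 0 to 0 among controls.

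Further purine genes called were 7 in LLC with length-scaled counts (from 12), and with each experiment alone 20 in LLC, 4 in KPCML1 (from 9) and 18 in KPP (from 29). With single libraries left out they ran from 3 to 7 in LLC, from 2 to 4 in KPCML1, from 9 to 21 in KPC, from 10 to 19 in C26 and from 21 to 25 in KPP. The log2 ratio of Ampd3 to Ampd1, tumour minus control, was 2.06 in KPCML1 (from 1.40) and 5.79 in KPP (from 4.98) with the most abundant transcript of each gene. With single libraries left out it ran from 3.59 to 5.43 in LLC, 1.28 to 1.51 in KPCML1, 4.66 to 6.89 in KPC, 2.64 to 5.42 in C26 and 4.60 to 5.35 in KPP. Except where fewer libraries were fitted, the cause was not tested.

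Whether replicate numbers pair the libraries was not established. Deviations of same-numbered libraries correlated at -0.174 to 0.0932, which cannot settle it with 2 libraries in a group. With the replicate block 0 members were called in KPCML1 and 0 for the difference among the models, and further purine genes called were 6 in LLC and 5 in KPCML1. With crossed pairs in KPP, added after the data were seen, 0 members were called among the models. A group of 2 libraries, and for Ada 1 to 31 counts, limits the precision. With 1 library left out the fit assumes that its partner varies as the other groups do.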
